A study of Mus musculus with 34 samples.

Results

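A set of 10 liver genes was followed across hepatocellular carcinoma (HCC) and non-HCC liver of irradiated and sham-irradiated mice. They were taken by name as landmarks of the periportal part of the liver lobule and as the enzymes of the urea cycle: Cyp2f2, Hal, Sds, Gls2, Cps1, Otc, Ass1, Asl, Arg1 and Pck1. Of these 10 genes, 8 had at least 1 annotated probe, 14 probes in all, among 19057 annotated genes on the array. Sds and Gls2 were not analysed here.

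The study asked how HCC that arises after high-LET radiation differs from other HCC. LET, linear energy transfer, is the energy a radiation deposits along its track. It is high for the iron and silicon ions used here and low for γ-rays. Male C3H/HeNCrl mice, a strain that also develops liver tumours without irradiation, were exposed once to the whole body as young adults or sham-irradiated, and livers were taken when animals became moribund or the study ended. The 34 liver samples, 1 array each, were 7 high-LET radiation-induced HCC (0.1 to 1 Gy), 3 low-LET radiation-induced HCC (2 to 3 Gy), 4 spontaneous HCC from unirradiated mice (0 Gy), 10 high-LET non-HCC livers (irradiated at 1 Gy, no HCC), 4 low-LET non-HCC livers (3 to 7 Gy) and 6 sham livers (0 Gy). The labels do not say which ion gave each high-LET sample. By the study's text its irradiated non-HCC livers were from iron ions or γ-rays, so the high-LET non-HCC livers followed iron and the high-LET HCC either ion. The labelled doses of the low-LET non-HCC livers run past the γ-ray range in the methods, and the labels were kept. Dose ranges differ between the groups, so dose and radiation type cannot be told apart. Samples carry the group name and a number that only names them. The labels do not say whether samples of a group came from separate animals, so p-values measure the spread between these samples.

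Values are log2 signals after background correction and quantile normalization. Following the study's methods, a gene is called where it changed over 1.3-fold and its p from limma's moderated test, adjusted over all 45219 probes by Benjamini and Hochberg, was below 0.1. Where a gene had 2 probes, the one with the brighter mean stands for it. An array can compare 1 probe across samples but not the levels of different genes. Each array had 21303 to 26745 probes above its background limit, which lay between 6.00 and 6.10 on the log2 scale. The summed signal of 12 hepatocyte markers ranged from 223400 to 254900 over all groups, and 0 of the 12 were called in any kind of HCC against sham livers. Very bright probes led this sum, such as Tf at 15.15 and Apoa1 at 14.99 in sham livers. Quantile normalization gives every array the same brightest values, so the sum could show little of a loss of hepatocytes. Alb, at 6.84, and Fgb, at 6.12, had a low signal. The 3 high-LET HCC with numbers 5, 6 and 7 stood apart from the other HCC: on the first principal component of all other probes they lay at -7.22, -7.88 and -13.30, where the 20 non-HCC livers ran from -29.81 to -20.91 and the other 11 HCC from 31.53 to 68.82. The summed signal of 9 tumour and oncofetal markers was 812.9, 1080 and 1063 in these samples, 837.7 to 1796 in non-HCC livers and 7740 to 41290 in the other HCC. The main results on high-LET HCC are therefore also given without these 3. In whole tissue, fewer cells of a type and less RNA per cell cannot be told apart.

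Liver lobules are divided along the blood flow. Hepatocytes near the portal vein, where oxygen-rich blood enters, carry out urea synthesis, amino acid breakdown and gluconeogenesis, whereas those near the central vein make glutamine and oxidize many foreign compounds. The urea cycle turns toxic ammonia into urea. CPS1 joins ammonia and bicarbonate into carbamoyl phosphate in mitochondria, OTC combines this with ornithine to citrulline, ASS1 adds aspartate in the cytosol, ASL splits the product into arginine and fumarate, and ARG1 releases urea and regenerates ornithine. CYP2F2 is a cytochrome P450 often used to mark periportal hepatocytes. HAL, histidine ammonia-lyase, starts histidine breakdown, and PCK1 catalyses a committed step of gluconeogenesis that rises in fasting through cAMP.

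RefSeq promoter windows (build GRCm38.p6) matched 5 of the 10 genes: Cyp2f2, Hal, Otc, Ass1 and Pck1. In the 250 bases before each start, 6 short motifs were searched on both strands: TGACGTCA, the cAMP response element, and TTACGTCA, its form in Pck1; CAAAGTCCA for HNF4; TTAATNATT for HNF1; TTGCGCAA for C/EBP; and TGTTTAC for FOXA. They occur in 1.55%, 0.447%, 0.384%, 1.4%, 0.164% and 3.17% of all 32851 windows of this length. The only match was TTACGTCA in Pck1, 93 to 86 bases before the start. Shown, 5′ to 3′ on the plus strand, are Cyp2f2, the gene with the largest difference in every HCC group, Ass1, lower than all 20 non-HCC livers in 12 of 14 HCC, and Pck1, with the matched letters in capitals. These letters are a description, and nothing is drawn from them about the factors.
Cyp2f2, chr7:27119705-27119954: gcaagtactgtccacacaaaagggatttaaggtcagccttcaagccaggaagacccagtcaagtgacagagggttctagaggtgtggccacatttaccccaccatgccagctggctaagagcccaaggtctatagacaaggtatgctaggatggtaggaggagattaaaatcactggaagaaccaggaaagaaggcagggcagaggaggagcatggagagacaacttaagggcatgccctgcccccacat
Ass1, chr2:31470020-31470269: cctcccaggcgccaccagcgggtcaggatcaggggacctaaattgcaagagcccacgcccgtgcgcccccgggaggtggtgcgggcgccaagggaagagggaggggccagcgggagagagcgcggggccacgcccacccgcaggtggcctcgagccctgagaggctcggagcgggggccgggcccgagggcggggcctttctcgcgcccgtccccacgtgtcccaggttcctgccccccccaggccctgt
Pck1, chr2:173152823-173153072: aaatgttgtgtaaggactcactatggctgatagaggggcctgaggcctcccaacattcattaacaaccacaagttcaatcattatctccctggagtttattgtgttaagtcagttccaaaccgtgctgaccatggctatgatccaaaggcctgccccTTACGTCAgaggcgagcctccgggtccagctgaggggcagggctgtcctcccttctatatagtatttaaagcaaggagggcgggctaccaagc

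Cyp2f2 was lower in every one of the 14 HCC than in any of the 20 non-HCC livers. Its log2 signal in sham livers had a lowest value of 14.07, a median of 14.20 and a highest of 14.32, and in high-LET non-HCC livers 13.94, 14.14 and 14.41. The 4 low-LET non-HCC livers stood at 14.02, 14.04, 14.19 and 14.22. Among non-HCC livers the gene was thus at nearly 1 level, with group SDs of 0.10 to 0.14. The 4 spontaneous HCC stood at 8.96, 10.30, 8.64 and 9.03, and the 3 low-LET HCC at 11.69, 9.71 and 10.52. The 7 high-LET HCC ranged from 10.34 through a median of 11.26 to 13.65. All HCC groups were separated from all non-HCC groups, and the 3 high-LET HCC near the livers, at 12.91, 12.75 and 13.65, were the 3 highest HCC. In any 1 HCC, 8.05% to 16.6% of all probes lay below all 20 non-HCC livers, which does not say how many did so in all 14.

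Against sham livers the log2 difference was -4.97 ± 0.44 (standard error; 31.4-fold; adjusted p = 1.06e-08 by limma) in spontaneous HCC. In low-LET HCC the log2 difference was -3.56 ± 0.48 (11.8-fold; adjusted p = 2.31e-05 by limma). In high-LET HCC it was -2.42 ± 0.38 (5.35-fold; adjusted p = 0.000129 by limma), and -3.41 without the 3 HCC near the livers. The 3 comparisons share the same 6 sham livers. Against livers of mice given the same radiation, the log2 difference was -3.48 ± 0.52 in low-LET and -2.39 ± 0.33 in high-LET HCC (adjusted p = 0.000116 and 1.45e-05 by limma), the latter -3.38 without the 3 HCC near the livers. Arrays of 1 BeadChip, the slide that carries several arrays, showed the same direction: -5.35 and -4.74 for spontaneous HCC against sham livers on 2 BeadChips, -1.40, -1.31 and -2.86 for high-LET HCC on 3, and -2.38 for low-LET HCC on 1.

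The kinds of HCC were then compared with each other. Cyp2f2 was 2.55 ± 0.43 higher on the log2 scale in high-LET than in spontaneous HCC (5.87-fold; adjusted p = 0.00155 by limma), and the 7 high-LET values lay above all 4 spontaneous ones. Here 2.48% of all probes were called in either direction, and Cyp2f2 was the 1 called among the 8 genes. Without the 3 HCC near the livers the difference was 1.56 (adjusted p = 0.00665 by limma). It was no longer called with only these 2 groups in the fit (adjusted p = 0.318 by limma), and within the 2 BeadChips that held both kinds it was 3.95 and 1.89. An F-test for whether the HCC-to-liver difference depends on the radiation, the interaction term of the study's model, called 0.694% of probes at the study's adjusted p of 0.2. Among the 8 genes it called Cyp2f2 (adjusted p = 0.115 by limma). The high-LET term was 2.59 ± 0.55 (adjusted p = 0.0513 by limma), or 1.60 ± 0.35 without the 3 HCC near the livers (adjusted p = 0.103 by limma), and the low-LET term 1.495 ± 0.68 (adjusted p = 1 by limma). The F-test call was lost when high-LET HCC 5 or spontaneous HCC 3 was left out, with arrays scaled to a common median, and with BeadChip as a fixed block.

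**Figure D1:**
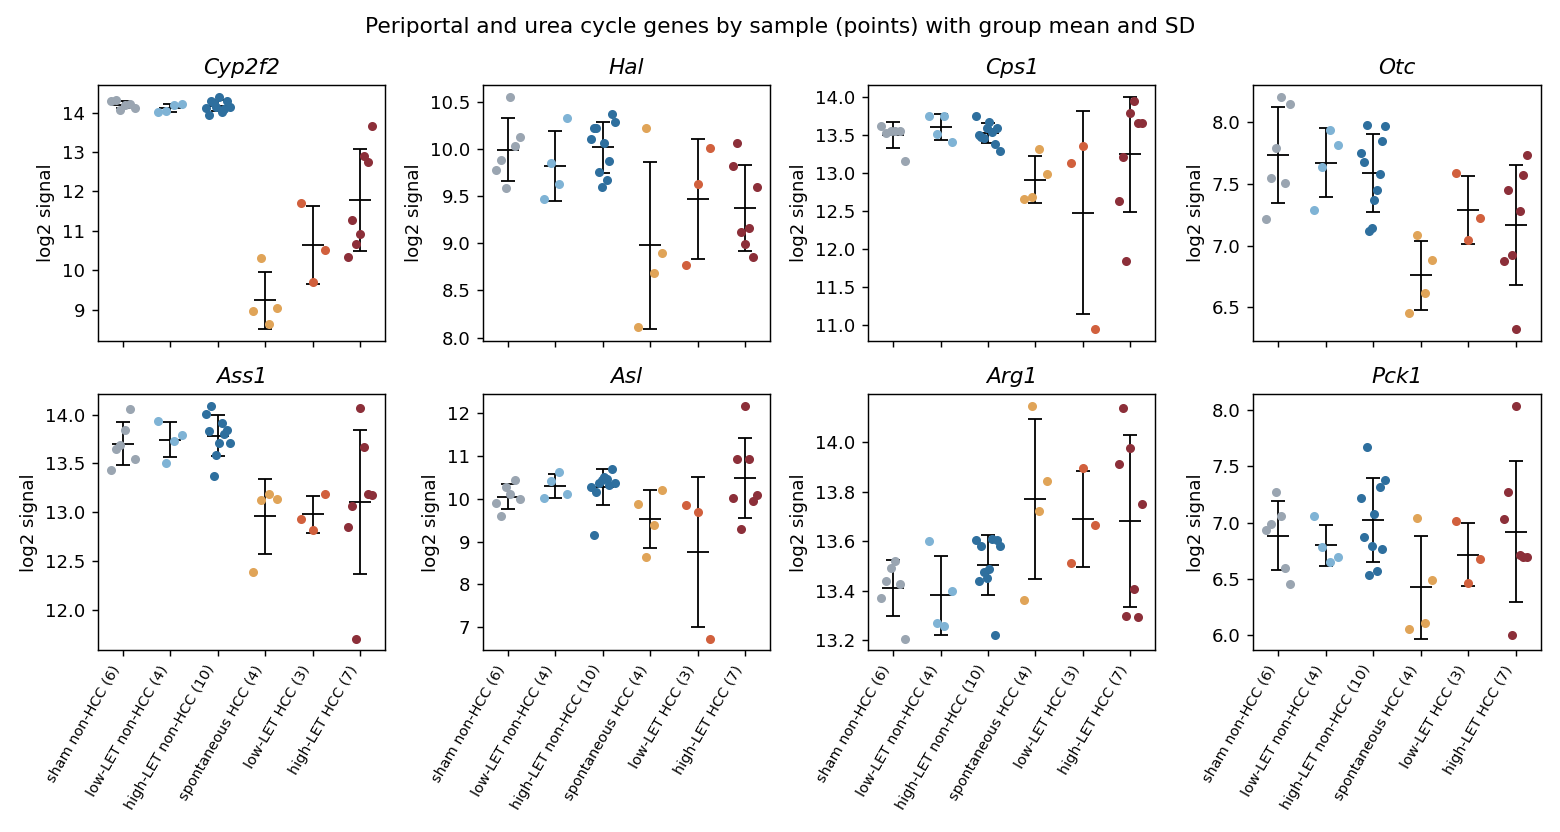
Log2 signal (y axis) of each of the 8 measured genes in the 6 groups (x axis, number of samples in brackets); points are samples, the bar and whiskers the group mean and SD, and each panel has its own scale. For Cyp2f2 all 14 HCC sit below the 20 non-HCC livers, whereas for Asl low-LET HCC 3 at 6.74 and high-LET HCC 4 at 12.17 lie on either side of them.

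Hal fell in spontaneous HCC. Its log2 signal was 9.59 to 10.55 in sham livers (median 9.96), 9.60 to 10.37 in high-LET non-HCC livers (median 10.08) and 9.47, 9.85, 9.62 and 10.33 in the low-LET non-HCC livers. In spontaneous HCC it was 8.12, 10.22, 8.68 and 8.89, so that 3 lay below and 1 within the sham range. The difference of -1.01 ± 0.29 (adjusted p = 0.0197 by limma) was not called without spontaneous HCC 1 (-0.73, adjusted p = 0.144 by limma). High-LET HCC ran from 8.86 through 9.16 to 10.07, and low-LET HCC stood at 8.77, 9.63 and 10.01. High-LET HCC differed from high-LET non-HCC livers by -0.64 ± 0.22 (adjusted p = 0.0566 by limma), a call lost without high-LET HCC 3, 4 or 6, without the 3 HCC near the livers (-0.52, adjusted p = 0.245 by limma) and with BeadChip as a fixed block (-0.46). Against sham livers its 2 probes differed in call: -0.62 ± 0.25 with adjusted p = 0.144 by limma for the brighter, and -0.78 ± 0.26 with adjusted p = 0.0624 by limma for the other. In low-LET HCC neither probe was called.

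Cps1, the entry enzyme of the urea cycle, varied little in non-HCC livers (group SDs of 0.14 to 0.17) and widely in HCC (0.31 to 1.33). Sham livers ran from 13.16 through 13.55 to 13.62, high-LET non-HCC livers from 13.29 through 13.52 to 13.74, and low-LET non-HCC livers stood at 13.74, 13.52, 13.74 and 13.41. Spontaneous HCC had 12.66, 12.68, 13.31 and 12.99, and low-LET HCC 13.13, 13.35 and 10.95. High-LET HCC ran from 11.85 through 13.65 to 13.94, with 2 of 7 below and 4 of 7 above the sham range. The low-LET HCC call rested on replicate 3. The difference from sham livers was -1.02 ± 0.36 (adjusted p = 0.086 by limma) with it and -0.25 (adjusted p = 0.828 by limma) without it. From low-LET non-HCC livers it was -1.12 ± 0.39 (adjusted p = 0.0878 by limma) and -0.36 (adjusted p = 0.782 by limma). Leaving out any of sham livers 1 to 5, or any low-LET non-HCC liver, also ended the respective call. In spontaneous HCC Cps1 differed by -0.58 ± 0.33 (adjusted p = 0.333 by limma) and in high-LET HCC by -0.25 ± 0.28 (adjusted p = 0.724 by limma). The high-LET value was 0.13 with BeadChip as a fixed block and -0.63 without the 3 HCC near the livers.

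Otc, the second enzyme and X-linked, had a modest signal, 7.21 to 8.21 in sham livers (median 7.67), 7.12 to 7.98 in high-LET non-HCC livers (median 7.63) and 7.29, 7.64, 7.94 and 7.82 in low-LET non-HCC livers. All 4 spontaneous HCC, at 6.46, 7.09, 6.62 and 6.89, lay below every sham liver. The difference was -0.98 ± 0.23 (adjusted p = 0.00372 by limma), and it was called in each of 14 settings and without any 1 sample. Its size ran from -0.51, as the mean of both probes, to -1.78 with the authors' normalized values. High-LET HCC ran from 6.32 through 7.28 to 7.74 and differed from sham livers by -0.57 ± 0.20 (adjusted p = 0.0719 by limma), or -0.84 without the 3 HCC near the livers. That call was lost when high-LET HCC 1, 3 or 4 or sham liver 3, 4 or 6 was left out. Low-LET HCC stood at 7.59, 7.05 and 7.22, not called at -0.45 ± 0.25 (adjusted p = 0.379 by limma). The second Otc probe was above background on 5 of 34 arrays and gives no level.

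Ass1, which adds the second urea nitrogen, was the most uniformly low gene after Cyp2f2: 12 of 14 HCC lay below all 20 non-HCC livers. In any 1 HCC, 8.05% to 16.6% of all probes lay that low, which does not say how many did so in 12 of 14. Sham livers ran from 13.44 through 13.67 to 14.06, high-LET non-HCC livers from 13.37 through 13.82 to 14.09, and low-LET non-HCC livers stood at 13.93, 13.51, 13.73 and 13.80. Spontaneous HCC stood at 12.39, 13.13, 13.18 and 13.14, low-LET HCC at 12.94, 12.82 and 13.19. High-LET HCC ranged from 11.71 through 13.18 to 14.07, the 2 exceptions being replicates 4 and 5 at 14.07 and 13.66. The log2 differences from sham livers were -0.75 ± 0.25 in spontaneous HCC (adjusted p = 0.053 by limma), -0.72 ± 0.27 in low-LET HCC (adjusted p = 0.122 by limma) and -0.60 ± 0.22 in high-LET HCC (adjusted p = 0.0893 by limma). Low-LET HCC did not overlap sham livers, yet the gene was not called there. Without the 3 HCC near the livers the high-LET value was -0.78 against sham livers and -0.86 against high-LET non-HCC livers. Against the latter the difference with all 7 was -0.68 ± 0.19 (adjusted p = 0.0159 by limma), called in 12 of 13 settings and without any 1 sample, but not with BeadChip as a fixed block (-0.43). The spontaneous call was lost without spontaneous HCC 1 (-0.56) or sham liver 5 (-0.68), and the high-LET call against sham livers without high-LET HCC 1, 2 or 3 (-0.37 without the latter) or any of sham livers 2 to 6.

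Asl, the fourth enzyme, differed most between individual HCC. Sham livers ran from 9.59 through 10.05 to 10.43, high-LET non-HCC livers from 9.16 through 10.37 to 10.70, and low-LET non-HCC livers stood at 10.03, 10.42, 10.63 and 10.10. Spontaneous HCC stood at 9.87, 8.65, 9.38 and 10.21 and low-LET HCC at 9.86, 9.69 and 6.74. High-LET HCC ran from 9.30 through 10.10 to 12.17, with 3 of 7 above all 20 non-HCC livers. The only call was in low-LET HCC against low-LET non-HCC livers, -1.53 ± 0.54 with adjusted p = 0.0998 by limma. It sat at the threshold, remained in 7 of 34 fits with 1 sample left out, and was -0.52 (adjusted p = 0.785 by limma) without low-LET HCC 3. The second probe gave -1.37 ± 0.52 (adjusted p = 0.142 by limma). The difference of high-LET from low-LET HCC was 1.72 ± 0.49 (adjusted p = 0.123 by limma), and 0.71 ± 0.44 (adjusted p = 0.887 by limma) without low-LET HCC 3. From sham livers high-LET HCC differed by 0.43 ± 0.39 (adjusted p = 0.635 by limma), or 0.55 without the 3 HCC near the livers.

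Arg1, the last enzyme, was the only one of the 8 genes with a higher mean in HCC in every comparison with livers. Asl was higher in high-LET HCC only, without a call. Arg1 lay above all 20 non-HCC livers in 9 of 14 HCC and below them in 0. Many probes lay above these livers in single HCC, such as 14.2% of all probes in high-LET HCC 4. This share does not say how many did so in 9 of 14. Sham livers ran from 13.21 through 13.43 to 13.52, high-LET non-HCC livers from 13.22 through 13.53 to 13.61, and low-LET non-HCC livers stood at 13.60, 13.27, 13.26 and 13.40. Spontaneous HCC stood at 13.36, 14.15, 13.72 and 13.84, low-LET HCC at 13.51, 13.90 and 13.66, and high-LET HCC ran from 13.29 through 13.75 to 14.14. None of the comparisons called it: the log2 difference from sham livers was 0.36 ± 0.14 in spontaneous HCC, 0.28 ± 0.15 in low-LET HCC and 0.27 ± 0.12 in high-LET HCC (adjusted p = 0.11, 0.37 and 0.193 by limma). It became a call in high-LET HCC without the 3 HCC near the livers (0.42, adjusted p = 0.0258 by limma) and in spontaneous HCC without replicate 1 (0.50, adjusted p = 0.0252 by limma).

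Pck1 had a low signal, near the background limit, and no group differed from livers by the test. Food was given ad libitum, and the feeding state at sampling is not given in the sources used here. It ran from 6.46 through 6.96 to 7.27 in sham livers and from 6.53 through 6.97 to 7.67 in high-LET non-HCC livers, with 7.06, 6.79, 6.65 and 6.70 in low-LET non-HCC livers. Spontaneous HCC stood at 6.06, 7.04, 6.11 and 6.49, low-LET HCC at 7.01, 6.46 and 6.68, and high-LET HCC ran from 6.00 through 6.70 to 8.04. The ranges overlapped in every comparison with livers. The differences from sham livers were -0.46 ± 0.26, -0.17 ± 0.29 and 0.03 ± 0.23 in spontaneous, low-LET and high-LET HCC (adjusted p = 0.347, 0.872 and 0.967 by limma).

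**Figure D2:**
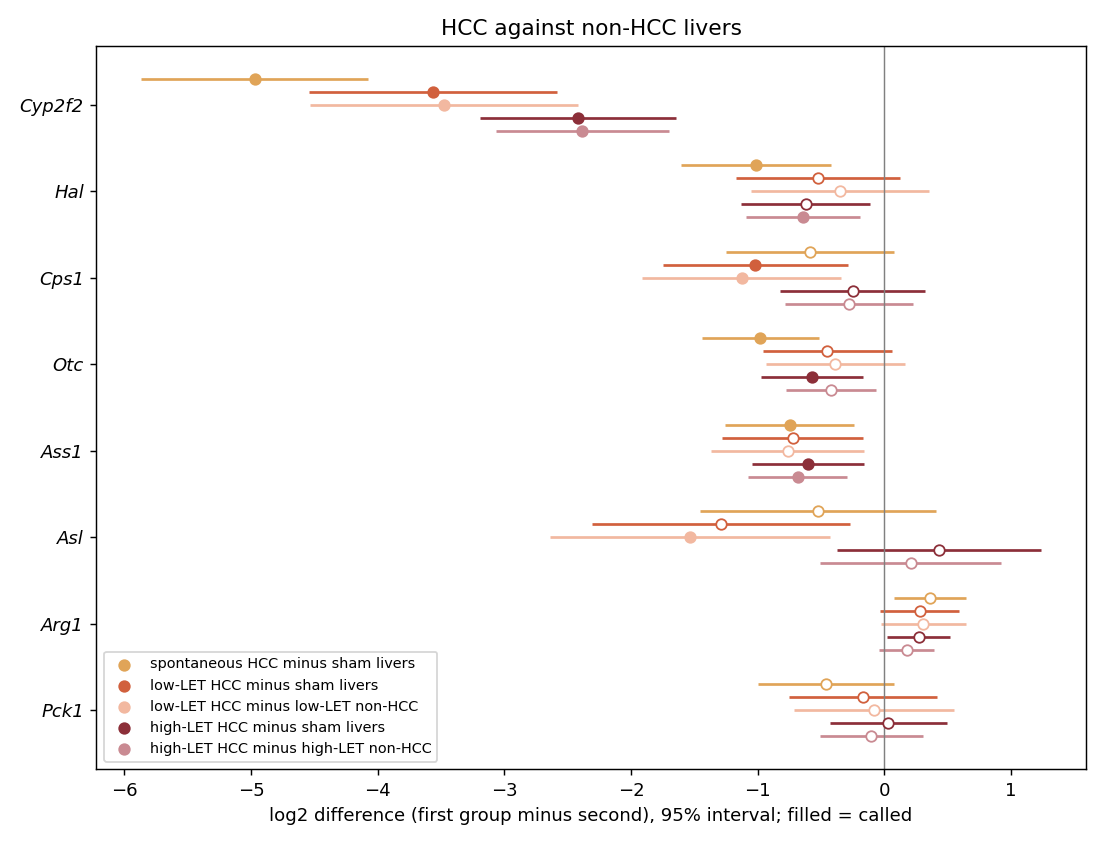
Log2 difference (x axis, HCC minus liver) of each gene with its 95% interval for 5 comparisons of HCC with non-HCC livers; filled points are called. Cyp2f2 runs from -4.97 to -2.39 and is called in all 5, Ass1 is called in 3 of them, and Arg1 lies to the right of 0 in all 5 without a call.

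Counted over the 8 measured genes against the background of all probes, decreases were frequent and called increases absent. In spontaneous HCC against sham livers 4 of 8 genes fell (Cyp2f2, Hal, Otc and Ass1) where 4.73% of probes were called lower and 4.67% higher. In high-LET HCC 3 of 8 fell (Cyp2f2, Otc and Ass1; background 3.56% lower and 3.2% higher), and in low-LET HCC 2 of 8 (Cyp2f2 and Cps1; 4.02% lower and 3.51% higher). Against livers after the same radiation, 3 of 8 fell in high-LET HCC (Cyp2f2, Hal and Ass1; 4.06% lower and 4.02% higher) and 3 of 8 in low-LET HCC (Cyp2f2, Cps1 and Asl; 3.36% lower and 3.22% higher). The median log2 difference of the 8 genes from sham livers was -0.67 in spontaneous, -0.62 in low-LET and -0.41 in high-LET HCC, beside medians of all probes between -0.01 and 0.00. An increase was called in 0 of the 8 genes, although Arg1 had an unadjusted p under 0.05 in high-LET and in spontaneous HCC. So had 19.5% and 20.5% of all probes, in either direction. The background shares cover all probes, of which each array had 21303 to 26745 above its background limit. The 8 genes were above it on all 34 arrays, so these shares are not those of probes with a signal. The genes were chosen by name with earlier results of these data known, so the counts of called genes describe them only.

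Between kinds of HCC few differences were called. Low-LET and spontaneous HCC differed in 0 of the 8 genes by limma (0.00663% of all probes called). At an unadjusted p under 0.05 there was 1 of 8 (5.11% of all probes), Cyp2f2 at 1.41 ± 0.52 and a 95% interval of 0.35 to 2.47. High-LET and low-LET HCC also differed in 0 of 8 (0.628% of probes called). At an unadjusted p under 0.05 there were 3 of 8 (10.6% of all probes): Cyp2f2, Cps1 and Asl, all higher in high-LET HCC. These differences rested on few samples. Without low-LET HCC 3 Cps1 differed by 0.002 and Asl by 0.707, and without the 3 high-LET HCC near the livers Cyp2f2 went from 1.14 to 0.15 ± 0.30. An ordinary linear model called 0 in both comparisons as well. With all samples the 95% interval for Cps1 was wide (0.06 to 1.48), and a missed call does not show equal levels.

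Irradiated livers without HCC held no called difference from sham livers in these genes. For both radiations 0 of 8 genes were called by limma or by the ordinary linear model, and 0% of probes were called (0 of 45219 in each). An unadjusted p under 0.05 was seen in 0 of 8 genes, and in 3.33% (high-LET) and 3.31% (low-LET) of all probes. The largest of these differences among the 8 genes was 0.25 ± 0.46, for Asl in low-LET non-HCC livers, and for Cyp2f2 the 95% intervals were -0.75 to 0.68 for high-LET and -0.98 to 0.81 for low-LET radiation.

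Ranked by mean, Cyp2f2 was the only gene with steps larger than the SD of the groups on both sides of the step. They lay between the lowest non-HCC group (14.12) and high-LET HCC (11.78), and between low-LET HCC (10.64) and spontaneous HCC (9.23). High-LET and low-LET HCC did not differ beyond their spread. For the other 7 genes no pair of neighbouring groups differed by more than the larger SD.

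Per tumour, the genes did not move as 1 block. High-LET HCC 3 and spontaneous HCC 1 had 6 of 8 genes below all 20 non-HCC livers (16.6% and 12.9% of all probes lay below there). Spontaneous HCC 2, 3 and 4 had 5 (12.6%, 11.9% and 13.2% of probes). High-LET HCC 2, 5 and 7 had 2 (13.3%, 8.39% and 8.05% of probes). High-LET HCC 4 was the only sample with more genes above than below: Cps1, Asl, Arg1 and Pck1 exceeded all livers while Cyp2f2, Hal and Otc lay under them, against 14.2% of probes above and 14.6% below. High-LET HCC 3 also had a summed signal of 8 neutrophil markers of 33460, where the other 33 samples ran from 540.7 to 3151. The summed signal of 11 macrophage markers was 2995 to 9378 in high-LET HCC, 2836 to 7051 in spontaneous HCC, 1566 to 4861 in low-LET HCC and 2836 to 3879 in sham livers. It was 3070 to 6442 in low-LET and 2341 to 4781 in high-LET non-HCC livers. Against sham livers 5 of 11 macrophage markers rose in high-LET, 3 in spontaneous and 0 in low-LET HCC, and 0 were called lower, although Clec4f, a marker of resident macrophages, had a log2 difference of -1.42 in spontaneous HCC (adjusted p = 0.139 by limma). Of 8 neutrophil markers the numbers called higher were 0 for spontaneous, 1 for low-LET and 3 for high-LET HCC. For both marker lists the shares of all probes called higher were 4.67%, 3.51% and 3.2% in the same order. A count of 1 marker is not read as a result. The part of macrophages and neutrophils in the results was not tested.

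**Figure D3:**
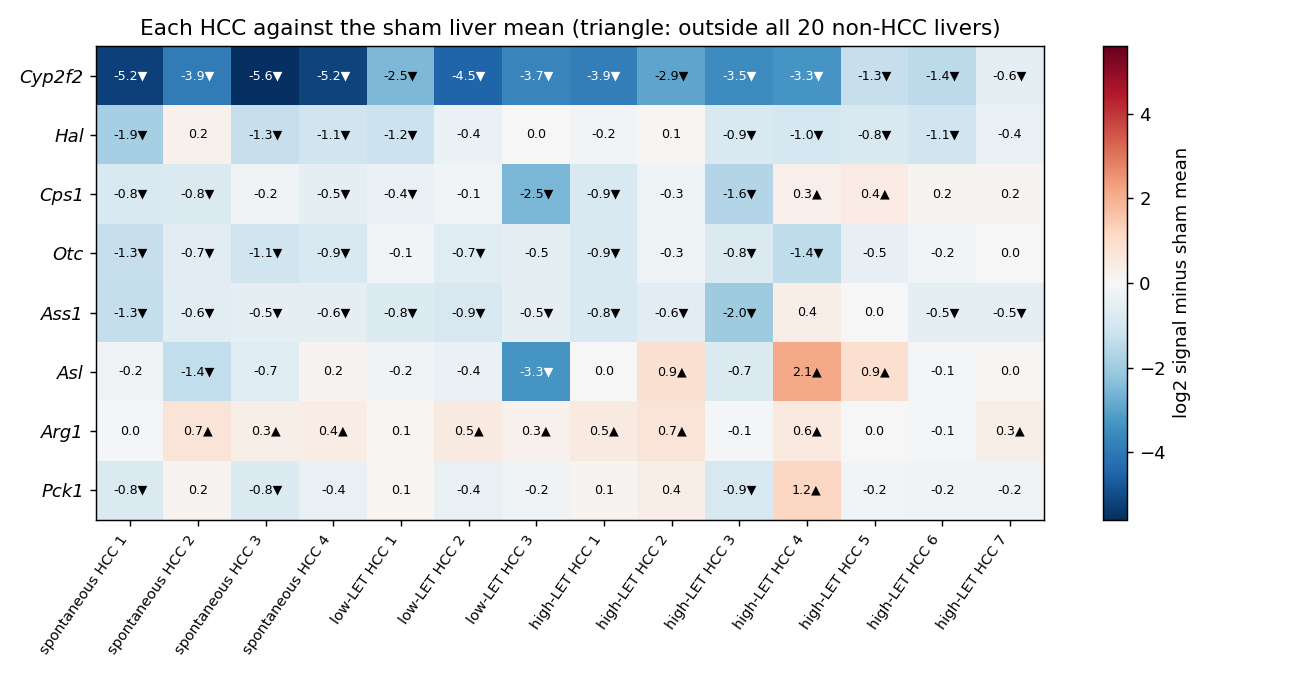
Log2 signal of each gene in each HCC minus the mean of the 6 sham livers (colour and printed value; rows are genes, columns are samples). Triangles mark values below or above all 20 non-HCC livers: the Cyp2f2 row is low throughout, the Ass1 row in 12 of 14 samples, and the Arg1 row holds 9 upward triangles.

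Cps1 and Asl were low together in low-LET HCC 3. Among the 14 HCC, Cps1 lay below all 20 non-HCC livers in 7 and Asl in 2. The 3 HCC on the liver side of the first component were too few for a value of their own, so the relation was computed over the other 11 HCC, a choice made after the data were seen. Among 28 pairs of genes, Cps1 and Asl had Pearson's r = 0.83 (permutation p = 0.00246, adjusted p = 0.0689) and Spearman's rho = 0.51 (permutation p = 0.114, adjusted p = 0.399). Without the 2 HCC farthest from the median of Cps1, r was 0.65, and as deviations from BeadChip means over 13 of the 14 HCC it was 0.83. The rank correlation did not pass the threshold, and low-LET HCC 3 was the lowest sample for both genes. No other pair of the 28 had an adjusted p under 0.1 over these 11. Over all 14 HCC, which form separate clusters, 4 pairs did. In the 20 non-HCC livers the 1 such pair was Hal and Otc (r = 0.65, permutation p = 0.00245, adjusted p = 0.0686; rho = 0.65, permutation p = 0.00226, adjusted p = 0.0633). It was r = 0.52 without the 2 farthest livers and 0.36 within BeadChips.

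The sample with the lowest Cps1 and Asl was low for some other parts of the pathway. Of 14 measured genes that support the urea cycle or handle ammonia, 5 lay below all 20 non-HCC livers in low-LET HCC 3 (Nags, Slc25a15, Oat, Glul and Rhbg), 2 above (Aldh18a1 and Slc38a3) and 7 within their range, Slc25a13 among them. As background, 8.05% to 16.6% of all probes lay below all 20 non-HCC livers in any 1 HCC. In low-LET HCC 3 the share of all probes above these livers was about as large as the share below. The 2 genes above are therefore not read as a result, and the counts only describe this sample. Nags makes N-acetylglutamate, the activator that CPS1 needs, and Slc25a15 carries ornithine into mitochondria. In low-LET HCC 3 Nags was at 6.29, against 7.58 to 8.56 in the 20 non-HCC livers, and Slc25a15 at 8.55, against 11.11 to 11.74. Glul, at 5.87, lay under the background limit of that array, 6.02, and gives no level there. Spontaneous HCC 2, with the second-lowest Asl, had the second-lowest Nags, 6.63. At the other end, high-LET HCC 4 had the highest Asl and the highest Nags of all samples, 9.59. As a group Nags was not called in any kind of HCC against sham livers (-0.29 ± 0.31 in spontaneous, -0.43 ± 0.34 in low-LET and 0.57 ± 0.27 in high-LET HCC). Nags was chosen for description after its values were seen.

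**Figure D4:**
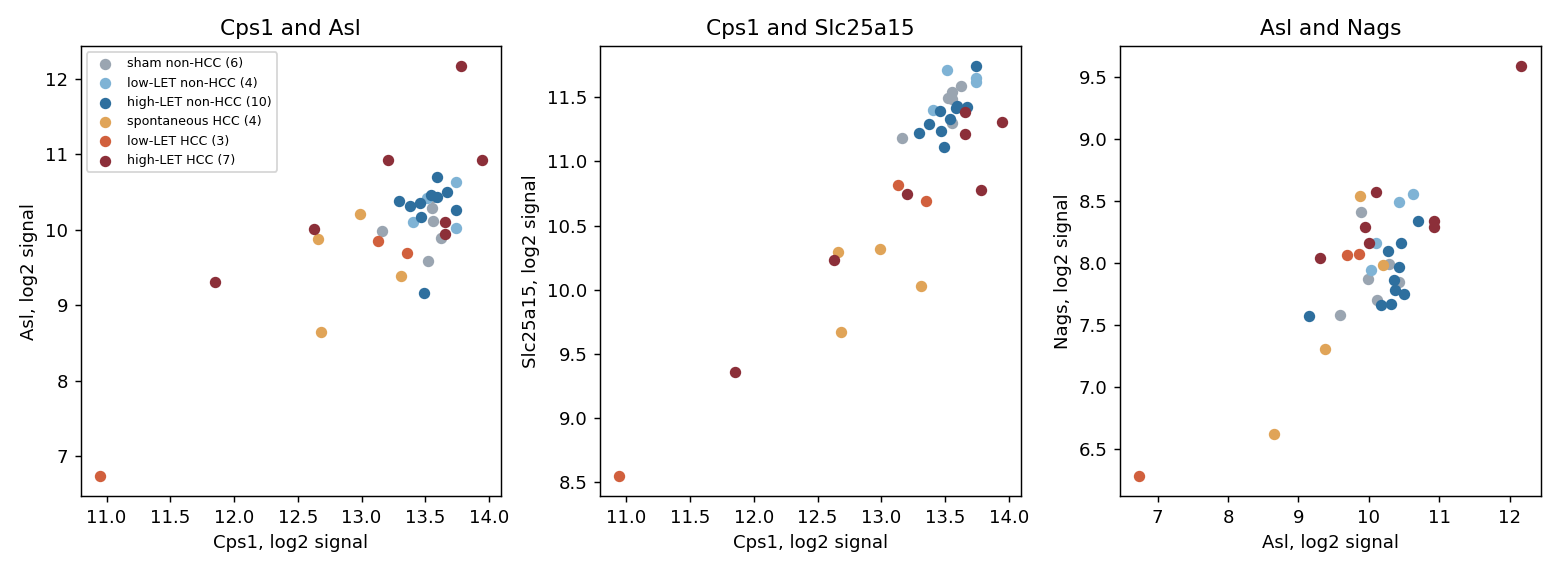
Log2 signals of Cps1 and Asl, Cps1 and Slc25a15, and Asl and Nags in the 34 samples (points, coloured by group, number of samples in brackets). Low-LET HCC 3 lies at the lower left of each panel (Cps1 10.95, Asl 6.74, Slc25a15 8.55, Nags 6.29) and high-LET HCC 4 at the upper right of the panels with Asl (12.17).

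Of 19046 genes, the one with the most similar pattern over the 14 HCC was sought for each gene by Pearson's r, as a description over samples that share BeadChips and include the 3 HCC near the livers. Cps1 was most like Slc25a15 (r = 0.928; 0.797 without the 2 farthest HCC), and Cyp2f2 most like Kynu, kynureninase of tryptophan breakdown (0.938 and 0.88). Arg1 was most like Gpt, alanine aminotransferase (0.888 and 0.822). Otc paired with Nudt7 (0.917), Asl with Rab28 (0.922), Hal with St3gal4 (0.861) and Pck1 with Magt1 (0.942), whose probe was above background on 21 of 34 arrays. The probe most like Ass1, of Pramel14 (0.917), was above background on 0 of 34 arrays.

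Other genes of nitrogen handling were read from lists that, like the 8 genes, were drawn up with earlier results known. Against sham livers, with all samples, the shares of all probes called lower were 4.73% in spontaneous, 4.02% in low-LET and 3.56% in high-LET HCC. The shares called higher were 4.67%, 3.51% and 3.2% in the same order. They are the background for each list below, and counts of 1 gene are not read as results on a list. Of 14 measured genes that support the urea cycle or handle ammonia, the calls lower and higher against sham livers were 3 and 1 in spontaneous HCC, 2 and 1 in low-LET HCC, and 1 and 0 in high-LET HCC (median log2 differences -0.045, -0.147 and -0.12). Oat, which links ornithine to glutamate and is pericentral in normal liver, had the largest decrease, -4.04 ± 0.84 in low-LET and -3.04 ± 0.77 in spontaneous HCC (adjusted p = 0.00206 and 0.00786 by limma). In high-LET HCC it was -1.40 ± 0.66 (adjusted p = 0.233 by limma). Oat was not low in every spontaneous HCC: the 4 values ran from 7.34 to 13.74, the highest within the sham range of 12.95 to 13.775. The 3 low-LET HCC ran from 7.83 to 10.89. Slc25a15 fell in the same 2 kinds (log2 differences -1.41 and -1.36; adjusted p = 0.00773 and 0.00349 by limma), while Aldh18a1, which makes the proline and ornithine precursor, rose by 0.885 and 0.96 (adjusted p = 0.00185 and 0.000172 by limma). Slc38a4, an amino acid transporter, fell in spontaneous HCC (-1.003), and Got2, a mitochondrial aspartate aminotransferase, in high-LET HCC (-0.44). Without the 3 HCC near the livers the high-LET calls were 3 lower and 3 higher, with Oat at -2.24 (adjusted p = 0.0392 by limma) and Slc25a15 at -1.15 (adjusted p = 0.005 by limma) among the former.

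Amino acid breakdown, another periportal task, had more calls than any other list. Of 25 measured genes 14 fell in spontaneous, 9 in low-LET and 8 in high-LET HCC, with medians of -0.63, -0.50 and -0.39, and 1 rose in each. Without the 3 HCC near the livers 15 fell in high-LET HCC. The gene that rose was Gpt in all 3 (0.63 ± 0.16, 0.52 ± 0.17 and 0.49 ± 0.14). Etnppl, an ethanolamine-phosphate lyase, fell in all 3 (log2 differences -3.28 in spontaneous, -3.28 in low-LET and -1.97 in high-LET HCC; adjusted p = 1.27e-05, 9.15e-05 and 0.00193 by limma). Its mean was 6.28 in both spontaneous and low-LET HCC, near the background limit, so the size of these decreases is limited by the floor. Kynu and Agxt, a glyoxylate and serine aminotransferase, fell in all 3 kinds too, with log2 differences of -2.04, -1.45 and -1.02 for Kynu and -1.28, -0.92 and -1.01 for Agxt in the same order. Amdhd1, which acts after HAL in histidine breakdown, fell in spontaneous and high-LET HCC (-1.06 and -0.885).

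Periportal landmarks outside the 10 genes were split. Of 20 measured, the calls lower and higher were 4 and 2 in spontaneous, 2 and 4 in low-LET, and 3 and 2 in high-LET HCC (medians 0.01, 0.26 and -0.09). Igfals, the acid-labile subunit of circulating IGF complexes, fell in all 3 (-2.84, -2.77 and -1.44), and Apom, an apolipoprotein, rose in all 3, by 1.37, 1.365 and 1.24. Apoa4, another apolipoprotein, rose by 2.36, 2.60 and 1.31. Of 22 pericentral landmarks, the calls lower and higher were 5 and 2 both in spontaneous and in low-LET HCC, and 1 and 1 in high-LET HCC (medians -0.21, -0.54 and -0.35). Cyp1a2, a P450 of the pericentral zone, fell in all 3 (-3.70, -3.64 and -2.56). Cyp2a5, another P450, rose in all 3, by 1.63, 1.635 and 1.155, and Slc1a4, an amino acid transporter, in spontaneous and low-LET HCC, by 1.99 and 1.32. Without the 3 HCC near the livers the high-LET calls lower and higher were 3 and 4 for the periportal and 7 and 2 for the pericentral list. Decreases were thus called in both landmark lists. With all high-LET HCC, however, the pericentral counts of 1 and 1 of 22 were near the shares of all probes (3.56% lower and 3.2% higher). The lists share no gene with the 8. They share some with the other lists, among them Etnppl and Gldc with amino acid breakdown, and Oat, Glul and Rhbg with urea cycle support. Fbp1 is shared with gluconeogenesis, and Alb and Trf (Tf) with the hepatocyte markers.

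In gluconeogenesis, with 10 genes measured, G6pc, glucose-6-phosphatase, fell in all 3 kinds (log2 differences -2.50, -2.34 and -1.74; adjusted p = 0.00784, 0.0332 and 0.0451 by limma), 1 gene rose (Gpt), and 2 further genes fell, Mdh1 in spontaneous and low-LET HCC and Gpd1 in spontaneous and high-LET HCC. Of 13 genes of arginine, polyamine and nitric oxide metabolism 1 fell in each kind, Agmat, which breaks down agmatine. The genes called higher were 3 in spontaneous and 2 in the other kinds. Slc7a7, a cationic amino acid transporter subunit, rose in all 3 by 0.88, 0.886 and 0.537, Smox, spermine oxidase, in all 3 by 3.35, 3.63 and 2.54, and Srm, spermidine synthase, in spontaneous HCC by 0.951. Of 12 genes that use carbamoyl phosphate for pyrimidines or follow from it, Ctps, CTP synthase, rose in all 3 by 1.58, 1.26 and 0.80, Nme1 rose in spontaneous HCC by 0.422, and 0 fell. Of 19 regulators, Foxa2, a forkhead factor of hepatocytes, was called lower than sham livers in all 3 kinds (-0.54, -0.63 and -0.60; adjusted p = 0.0658, 0.0559 and 0.0176 by limma). Against livers given the same radiation it was not called (-0.31 in low-LET and -0.19 in high-LET HCC, adjusted p = 0.568 and 0.487 by limma), and these livers themselves differed from sham livers by -0.32 and -0.41 without a call. Foxa1 was called lower (-0.84) and Cebpb higher (0.88) in high-LET HCC against sham livers, and Foxa3 higher in spontaneous and low-LET HCC. Against high-LET non-HCC livers Foxa1 was not called (-0.28, adjusted p = 0.378 by limma), whereas Cebpb was (0.87, adjusted p = 0.00807 by limma). For Foxa1, high-LET and low-LET non-HCC livers themselves differed from sham livers by -0.56 and -0.62 without a call. In 11 fasting-response genes, G6pc was the 1 that fell in each kind, and without the 3 HCC near the livers it was not called in high-LET HCC (-1.52, adjusted p = 0.144 by limma). Igfbp1 and Cyp4a14 rose in high-LET HCC by 1.215 and 1.56, and Igfbp1 in spontaneous HCC by 1.203. In 9 genes of fed lipogenesis Me1, malic enzyme, fell in all 3 kinds (-1.72, -1.55 and -1.13), and Pnpla3, a lipid droplet protein, rose in spontaneous and low-LET HCC by 3.13 and 3.40.

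**Figure D5:**
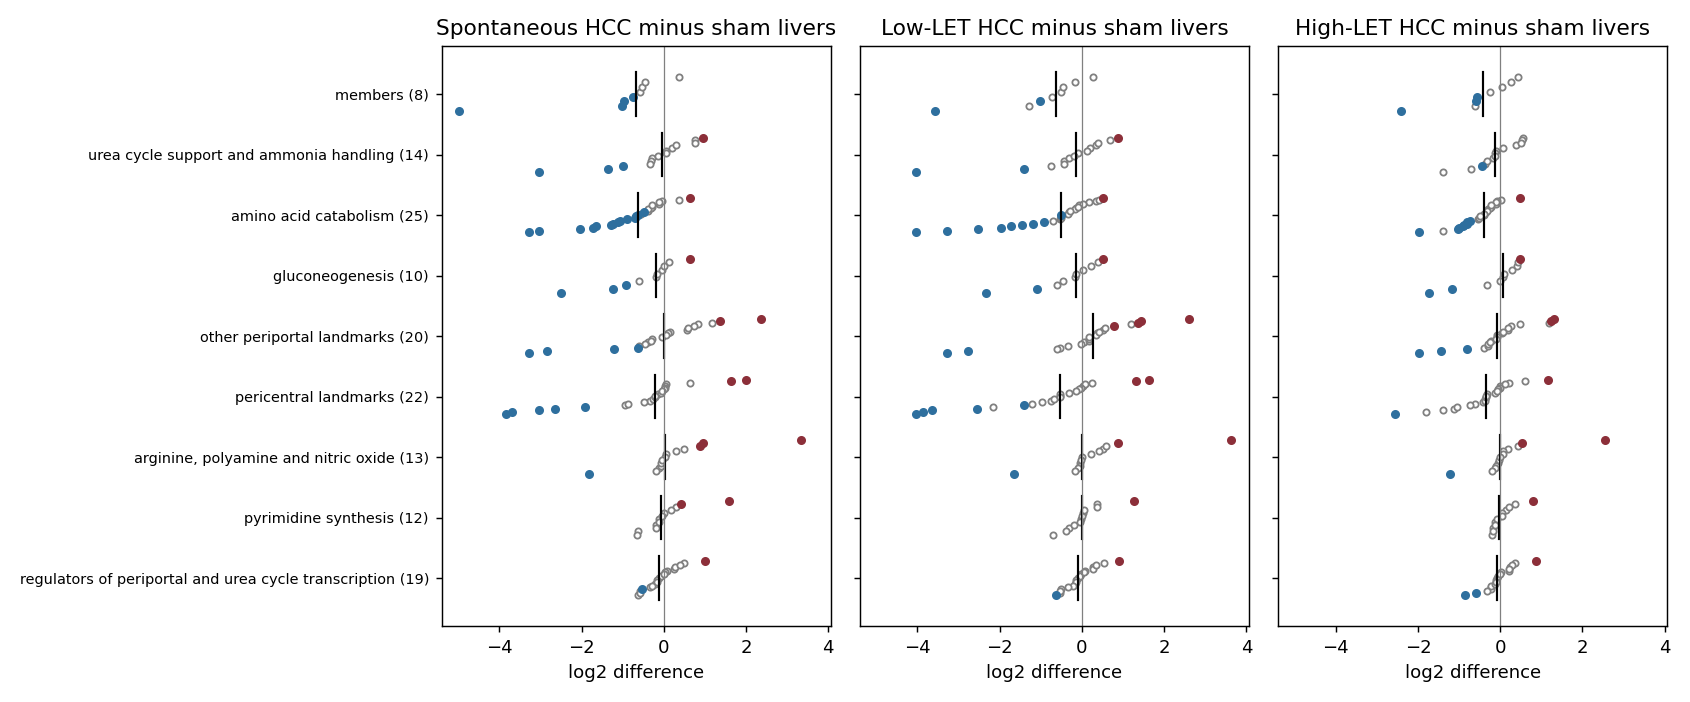
Log2 differences (x axis, HCC minus sham livers) of the 8 genes and of 8 gene lists (rows, number of measured genes in brackets) in the 3 kinds of HCC; filled blue points are called lower, filled red points called higher, open points not called, and the vertical bar is the list median. The amino acid list has the most called decreases, 14 of 25 in spontaneous HCC.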

How the data were processed

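RNA of 34 mouse livers was hybridised to Illumina BeadChips. Per the methods, the authors summarised scans in GenomicStudio, and the deposited intensity table holds bead-summary signals without normalization. A second deposited table holds log2 values that the authors background-subtracted (MBCB) and quantile-normalized. It was used as an alternative. Intensities were corrected by normexp (offset 50), quantile-normalized and log2-transformed. Probes above the median of the dimmest 25% on at least 3 arrays were kept (45219 of 45281). Of all probes, 34885 had 1 gene symbol, 18 several and 10378 none.

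Group means over 6 groups were fitted with limma 3.58.1 (R 4.3.3) and contrasted, with Benjamini-Hochberg adjustment over all probes. The methods used a two-way ANOVA, and its interaction was tested here by limma's F-test. Scripts were tested on simulated data. Depth has no counterpart on arrays, where the number of arrays limits precision. Correlations were tested with 100000 permutations. The genes and lists were chosen with earlier results of these data known. All 10 genes are named, with second probes where they differ in call, and from each list up to 4 genes of the smallest adjusted p and those a count needs. For likeness, the 1 gene of highest Pearson r over 14 HCC is named. The correlation over 11 HCC, and the interaction terms, kinds of HCC and lists without the 3 high-LET HCC near the livers or without low-LET HCC 3, were added after the data were seen.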

Additional observations from a re-analysis of the deposited data

Results flagged for a closer look

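Of 40 combinations of gene and group of 4 to 10 samples, 4 held a sample far from the others, and chance flags about 1 in 20. Cps1 was 13.158 (log2) in sham liver 6, the lowest of its group. Ass1 was 12.386 in spontaneous HCC 1, and the call in that group was lost without it. Asl was 9.156 in high-LET non-HCC liver 2, and Arg1 was 13.219 in high-LET non-HCC liver 8.

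The interaction F-test of radiation and HCC called Cyp2f2 (adjusted p = 0.115 by limma, under the study's threshold of 0.2), and the high-LET term was 2.586 on the log2 scale. The call was lost without high-LET HCC 5 or spontaneous HCC 3, with scaling to a common median and with BeadChip as a fixed block. Without the 3 high-LET HCC near the livers, the 3 highest HCC for this gene, the F-test had adjusted p = 0.13 by limma and the term was 1.596.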

How the results depend on the processing

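Cyp2f2 was called lower in each comparison of HCC with livers in all settings and without any 1 sample. Other counts of the 8 genes moved. In high-LET HCC against sham livers the count was 3, and it was 1 with scaling to a common median, with only the 2 groups in the fit and at an adjusted p under 0.05 with a fold above 1.5. In low-LET HCC against sham livers (2) it was 1 with that scaling, those thresholds, BeadChip as a fixed or random block or an ordinary linear model, and 4 with a filter on the background limit or with all 20 non-HCC livers as baseline. In low-LET HCC against low-LET non-HCC livers (3) it was 1 with the same scaling, thresholds, blocks and linear model. In high-LET against spontaneous HCC (1) it was 2 with BeadChip as a fixed block and 0 with only the 2 groups. In high-LET against low-LET HCC (0) it was 1 with the background filter and 1 with array weights. The interaction (1) gave 0 with the scaling, the thresholds and the fixed block.

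Leaving out 1 sample gave 1 to 4 genes in high-LET and 1 to 4 in low-LET HCC against sham livers, 3 to 4 in spontaneous HCC, 2 to 4 and 1 to 4 against irradiated livers, 1 to 1 in high-LET against spontaneous HCC, 0 to 2 in high-LET against low-LET HCC and 0 to 2 in the interaction. Comparisons of irradiated non-HCC with sham livers, and of low-LET with spontaneous HCC, stayed at 0 to 0.

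Of single genes under other settings, 484 values kept direction and side of the threshold, 42 were no longer called, 21 became calls and 10 reversed, and leaving out 1 sample gave 1313, 58, 14 and 9. Reversed values were small. With BeadChip as a fixed block Cps1 in high-LET HCC was 0.129 against sham and 0.032 against high-LET non-HCC livers, and Pck1 was 0.066 in low-LET HCC against sham livers, 0.205 against low-LET non-HCC livers and 0.071 in high-LET HCC against high-LET non-HCC livers. Pck1 in high-LET HCC against sham livers was -0.152 with the authors' normalized values, -0.019 with array weights and -0.016 with 20 livers as baseline. It was 0.064 against high-LET non-HCC livers without the 3 HCC near the livers, and 0.036 in low-LET HCC against low-LET non-HCC livers with the common median. Leaving out 1 sample moved Pck1 from -0.152 to 0.187 in high-LET HCC against sham livers, from -0.287 to 0.052 against high-LET non-HCC livers and from -0.228 to 0.047 in low-LET HCC against low-LET non-HCC livers. Asl in high-LET HCC against high-LET non-HCC livers ran from -0.073 to 0.405, and Hal in low-LET HCC against low-LET non-HCC livers from -0.619 to 0.001. The cause was not tested. The interaction could not be run with 2 groups or the 20-liver baseline. No paired analysis was possible because the labels carry no replicate numbers. The second Otc probe and Pck1 lie near background, which limits what they can show.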
